A study of Homo sapiens with 4 samples.

Results

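The genes described here are 40 genes of glycolysis and of the hypoxia response, taken by name from a count table of 67062 rows, and all 40 were matched to 1 row each. They comprise 4 glucose and lactate transporters, 17 glycolytic and lactate dehydrogenase enzymes, 4 kinases that steer glycolytic flux, 6 genes of the hypoxia-inducible factors (HIFs) and their control, and 9 HIF target genes. Of the 40 genes, 39 had enough reads to be tested. RNA came from OCI-AML3, an established human acute myeloid leukaemia line with the cytoplasmic NPM1 mutation, and both groups share that background, a medium with fetal bovine serum, retroviral transduction and sorting for GFP. Cells of the PIG-LONA group were transduced with the retroviral pMSCV-PIG vector holding the whole LONA sequence, a long noncoding RNA transcribed from a polymerase II promoter, and cells of the PIG-EMPTY group with the empty vector as the negative control. In both groups the vector's PGK promoter drives puromycin resistance and GFP. Each group had 2 libraries from separate transductions of this 1 line, and no oxygen level other than that of routine culture is named. No row was matched to LONA by name, so its level could not be used to check the labels.

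Glycolysis splits glucose into pyruvate in the cytosol, and lactate dehydrogenase can then turn pyruvate into lactate, which leaves the cell through monocarboxylate carriers. HIF is a pair of an alpha subunit (HIF1A or EPAS1) and the partner ARNT. In oxygen, EGLN prolyl hydroxylases mark the alpha subunit for VHL-dependent destruction, so HIF activity is set largely at the protein level, which RNA counts do not show. When stabilised, HIF raises glycolytic enzymes, glucose transporters, pyruvate dehydrogenase kinases and secreted factors such as VEGFA. Leukaemic blasts are known for active glycolysis even in oxygen.

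Total counts ran from 29819572 to 38358442 per library, and the 40 genes took 1.31% to 1.33% of them in every library. Genes of a myeloid and leukaemia list were present, with 15 of 15 above 1 CPM (counts scaled to the library total, TMM-adjusted) in at least 1 library. Of 8 T and NK cell markers, 5 were at 0 counts in all 4 libraries, among them CD3D, CD3E and CD3G, and the 8 summed to 1.53 to 2.35 CPM. Of 9 erythroid markers, 8 were at 0 throughout. The PIG-LONA libraries differed more from each other (chi-square per gene 4.67) than the PIG-EMPTY libraries did (1.76). Against that spread, 1024 of 15918 tested genes (6.43%) differed between the groups (edgeR's quasi-likelihood test, threshold 0.05 for p adjusted after Benjamini and Hochberg), with 2.93% of all tested genes higher and 3.50% lower in PIG-LONA. DESeq2 called 473 genes, and edgeR called 334 when low counts were kept in. Leaving out 1 library leaves 1 group without a spread of its own, so the test takes the spread from the other group alone. Calls gained in such fits are not read as results.

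Few of these genes differed between the groups, and those that did went both ways. VEGFA and PDK3 rose in PIG-LONA, while EPAS1, HK1 and ADM fell, which makes 5 called genes among 39 (12.8%, beside 6.43% of all tested genes). The median log2 fold change of the 39 genes was -0.01, and that of all tested genes was 0.00106. Among the 39, 25 (64.1%) had an absolute log2 fold change under 0.1, against 53.6% of all tested genes. Since these genes are mostly abundant, a closer background is the 7752 genes that average 20 CPM or more. There 4 of 33 glycolysis and hypoxia genes were called, a larger share than the 8.95% of the 7752. Under 0.1 lay 23 of 33, a smaller share than the 75.4% of the 7752. The median absolute log2 fold change was 0.0624 for the 33 and 0.0538 for the 7752. Of the 17 enzymes, 13 (76.5%) lay under 0.1, against 53.6% of all tested genes, and 1, HK1, was called (5.88%, beside 6.43%). ALDOA, ENO2 and LDHB averaged under 20 CPM, so the 7752 genes are not a like background for all 17. Libraries of the groups did not overlap in 22 of the 39 genes (56.4%), among them 11 of the 17 enzymes (64.7%), beside 48.0% of all tested genes. An unadjusted p under 0.05 in edgeR was found for 13 of the 39 genes, a larger share than the 18.7% of all tested genes. The 2 higher genes became 1 with DESeq2 and with low counts kept in. The count of 3 lower genes was 1 without the filter and 2 with DESeq2.

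**Figure D1:**
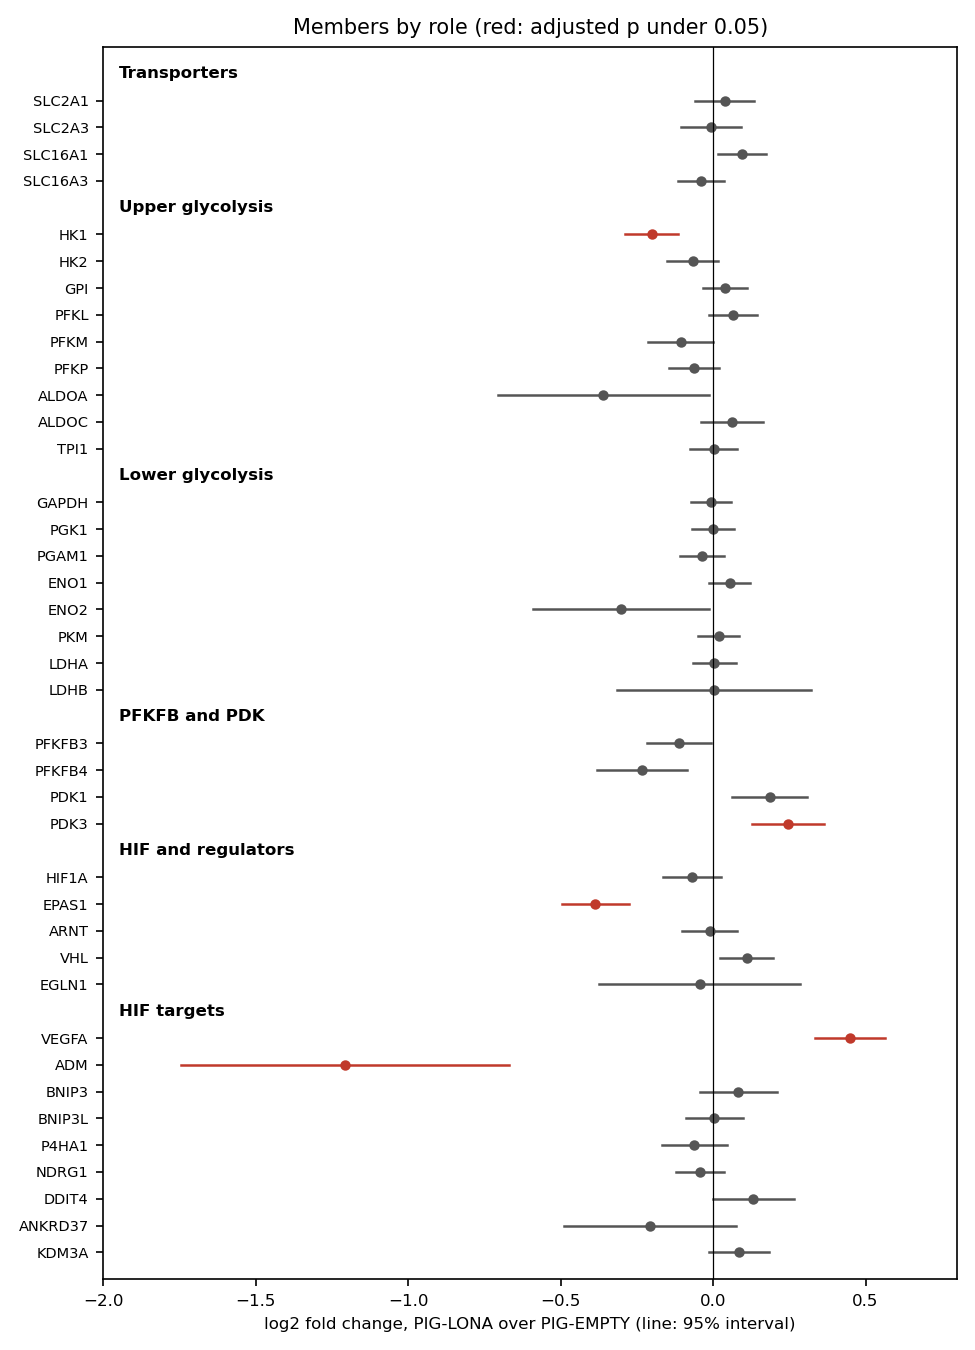
Log2 fold change (PIG-LONA over PIG-EMPTY, x axis) of the 39 tested genes, grouped by role, with 95% intervals as lines and genes with adjusted p under 0.05 in red. Most enzymes sit on the zero line with short intervals, while ADM at -1.21 and VEGFA at 0.45 lie farthest from it.

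Upstream sequence of 3 called genes is shown because the HIF pair binds a short core, ACGTG or GCGTG, and because these genes went in different directions. LDHA is added as a HIF target gene whose level was almost the same in both groups. The sequences come from the 250 bases before a RefSeq start (GRCh38.p14, plus strand), and core matches on either strand are in capitals. For EPAS1, PDK3 and LDHA they stop before the first annotated exon base inside that window, and ADM, whose window lies within an annotated exon, is limited to 30 bases around its core. The stretches are chr11:10304959-10304988 for ADM, chr2:46297157-46297401 for EPAS1, chrX:24465036-24465220 for PDK3 and chr11:18394313-18394387 for LDHA.
ADM: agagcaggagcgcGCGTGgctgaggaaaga
EPAS1: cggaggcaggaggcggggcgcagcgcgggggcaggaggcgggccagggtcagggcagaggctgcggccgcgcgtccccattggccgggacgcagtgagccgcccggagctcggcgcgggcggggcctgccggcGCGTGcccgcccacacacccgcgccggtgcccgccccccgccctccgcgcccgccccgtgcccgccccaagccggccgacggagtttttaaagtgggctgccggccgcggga
PDK3: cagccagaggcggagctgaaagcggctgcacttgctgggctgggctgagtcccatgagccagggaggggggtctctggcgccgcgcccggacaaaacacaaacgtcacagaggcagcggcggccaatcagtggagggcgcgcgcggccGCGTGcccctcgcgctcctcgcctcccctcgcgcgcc
LDHA: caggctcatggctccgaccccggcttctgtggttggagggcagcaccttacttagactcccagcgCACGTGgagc

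Over the full 250 bases, ADM and EPAS1 each held 1 GCGTG match, PDK3 held 1 of each core, and LDHA held 5 ACGTG matches, where the palindrome CACGTG counts once on each strand. Of 35116 RefSeq windows of this length, 43.2% held at least 1 core on either strand, 18.5% ACGTG and 32.2% GCGTG. Windows were found for 34 of the 40 genes, with none for VEGFA, and 37 of their 62 windows (59.7%) held a core. A second LDHA window, not shown, held 1 GCGTG match. A match is a string of letters and was not tested as a binding site. These 4 windows, of 1 gene that rose, 2 that fell and 1 that was not called, each held at least 1 match. SLC2A1, PKM and PGAM1, also not called, each had 1 window, without a core, so the 4 shown do not stand for the list. HK1, also called, has 7 RefSeq windows, 6 of them without a core, and is not shown.

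Among the HIF alpha subunits, the leukaemia cells expressed both, and EPAS1 was the one that fell. EPAS1, which encodes HIF-2 alpha (chromosome 2, 46293667 to 46386703, GRCh38), stood at 60.0 and 61.5 CPM in PIG-EMPTY, against 44.0 and 48.7 CPM in PIG-LONA. Both PIG-LONA libraries were thus below both PIG-EMPTY libraries. Its mean fell from 60.7 ± 1.04 to 46.4 ± 3.35 CPM (SD, n = 2 libraries each). The log2 fold change was -0.39 ± 0.05 (SE), with an edgeR adjusted p = 0.000105. It held under all 16 other settings, between -0.46 and -0.32, with adjusted p of at most 0.0188.

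HIF1A, the subunit better known for driving glycolytic genes, was at 76.7 and 78.1 CPM in PIG-EMPTY and 71.5 and 76.0 CPM in PIG-LONA. These libraries did not overlap either, but the gap was small and did not pass (log2 fold change -0.07 ± 0.05, edgeR adjusted p = 0.457). Counted per kilobase of exon, EPAS1 made up 35.6% and 35.7% of the 2 alpha transcripts in PIG-EMPTY, against 30.3% and 31.2% in PIG-LONA. The exact (Clopper-Pearson) 95% counting intervals ran from 34.1% to 37.1% in PIG-EMPTY and from 28.8% to 32.4% in PIG-LONA, so they did not meet. An exact permutation test of 2 against 2 libraries cannot give a p under 0.33, so shares are given without a test.

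The remaining control genes did not pass with all libraries. ARNT, the shared partner, was at 103 and 106 CPM in PIG-EMPTY and 101 and 107 CPM in PIG-LONA. VHL, the ubiquitin ligase subunit that removes hydroxylated HIF, was at 104 and 108 CPM against 113 and 116 CPM, a log2 fold change of 0.11 ± 0.04 (edgeR adjusted p = 0.136). Without PIG-LONA replicate 1, which leaves 1 library in that group, the log2 fold change of VHL was 0.13. Of the oxygen-sensing hydroxylases, EGLN1 had 110 and 130 counts in PIG-EMPTY against 98 and 158 in PIG-LONA, too few for a narrow estimate (log2 fold change -0.04, 95% interval -0.37 to 0.29). EGLN3, itself a strongly hypoxia-inducible gene, had 6, 2, 5 and 1 counts across the libraries and was not tested.

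VEGFA had the smallest p of the 9 HIF targets. This gene, which encodes the main angiogenic growth factor (chromosome 6, 43770184 to 43786487), was at 56.4 and 51.6 CPM in PIG-EMPTY and 77.4 and 70.2 CPM in PIG-LONA. All PIG-LONA values were above all PIG-EMPTY values, from 54.0 ± 3.36 to 73.8 ± 5.09 CPM on average (log2 fold change 0.45 ± 0.05, a 1.37-fold rise, edgeR adjusted p = 2.69e-05). It lies on chromosome 6, whose genes were higher as a whole in PIG-LONA. The median log2 fold change was 0.17 over 799 tested chromosome 6 genes, 0.14 over the 79 other genes within 5 Mb of VEGFA and -0.00358 over the 15119 genes of other chromosomes. VEGFA was above 93.5% of chromosome 6 genes, with 51 of them higher. With the chromosome shift taken out of each library, a setting added after the data were seen, VEGFA was still called, at 0.28 ± 0.05 (edgeR adjusted p = 0.00255). The source of the chromosome 6 shift was not tested.

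**Figure D2:**
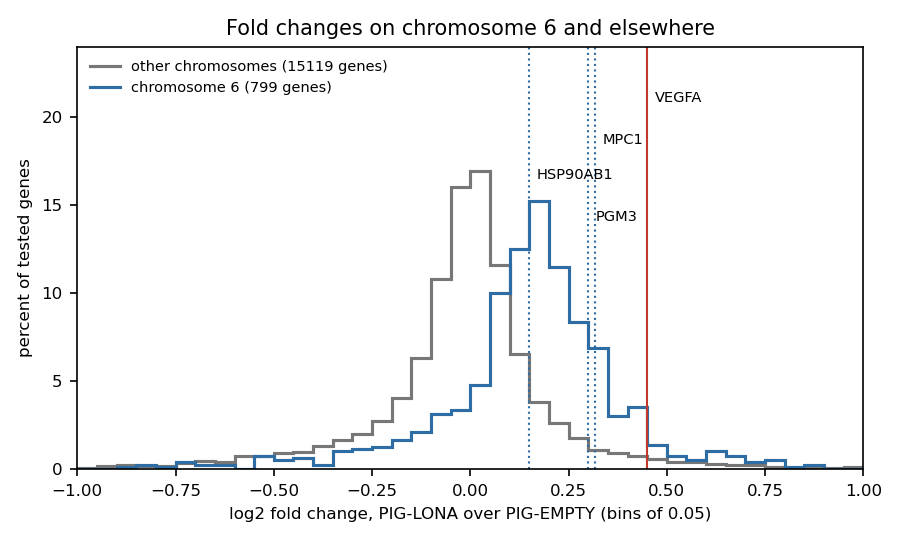
Share of tested genes (y axis, percent) by log2 fold change (x axis, bins of 0.05) for chromosome 6 and for all other chromosomes, with VEGFA (red line) and 3 related chromosome 6 genes (dotted lines) marked. The chromosome 6 curve is displaced to the right by about its median of 0.17, and VEGFA at 0.45 lies in its upper tail.

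ADM went the other way. It encodes adrenomedullin, a vasodilator peptide (chromosome 11, 10304680 to 10307397), and was rare, with 71 and 64 counts in PIG-EMPTY and 36 and 28 counts in PIG-LONA. Relative to depth these were 2.38 and 1.97 CPM against 1.203 and 0.728 CPM, with no overlap. The log2 fold change was -1.21 ± 0.26, a 2.31-fold fall with a wide 95% interval from -1.75 to -0.67 (edgeR adjusted p = 0.00547). The call was lost without PIG-LONA replicate 2 (-0.85, adjusted p = 0.0592) and with low counts kept in (adjusted p = 0.0616).

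Of the 9 HIF targets, the other 7 did not pass the test. NDRG1, a stress-induced gene and one of the more abundant targets, was at 205 and 199 CPM in PIG-EMPTY and 200 and 193 CPM in PIG-LONA, overlapping values (log2 fold change -0.04 ± 0.04). BNIP3L, a mitophagy receptor, was at 76.2 and 73.2 CPM against 74.5 and 75.2 CPM, and its relative BNIP3 at 62.8 and 53.4 against 63.4 and 59.5 CPM. In BNIP3 the PIG-EMPTY libraries alone spanned nearly the full range. P4HA1, a collagen prolyl hydroxylase subunit, had a log2 fold change of -0.06 ± 0.05, and KDM3A, a histone demethylase, one of 0.09 ± 0.05. DDIT4, an inhibitor of mTORC1 signalling, was at 45.3 and 39.1 CPM against 48.1 and 44.4 CPM. ANKRD37 had under 200 counts in every library (194 at most) with a log2 fold change of -0.21 ± 0.14. It shares 909 exon bases with UFSP2 on the opposite strand, a row of 2236 counts over the 4 libraries. The strand setting of the counting is not given, and the part of this overlap was not tested. DDIT4 did not pass (edgeR adjusted p = 0.263), and without PIG-LONA replicate 2 its log2 fold change was 0.19. The HIF targets had 1 higher, 1 lower and 7 not called (22.2% called, beside 6.43% of all tested genes). Their median log2 fold change was 0.00377.

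**Figure D3:**
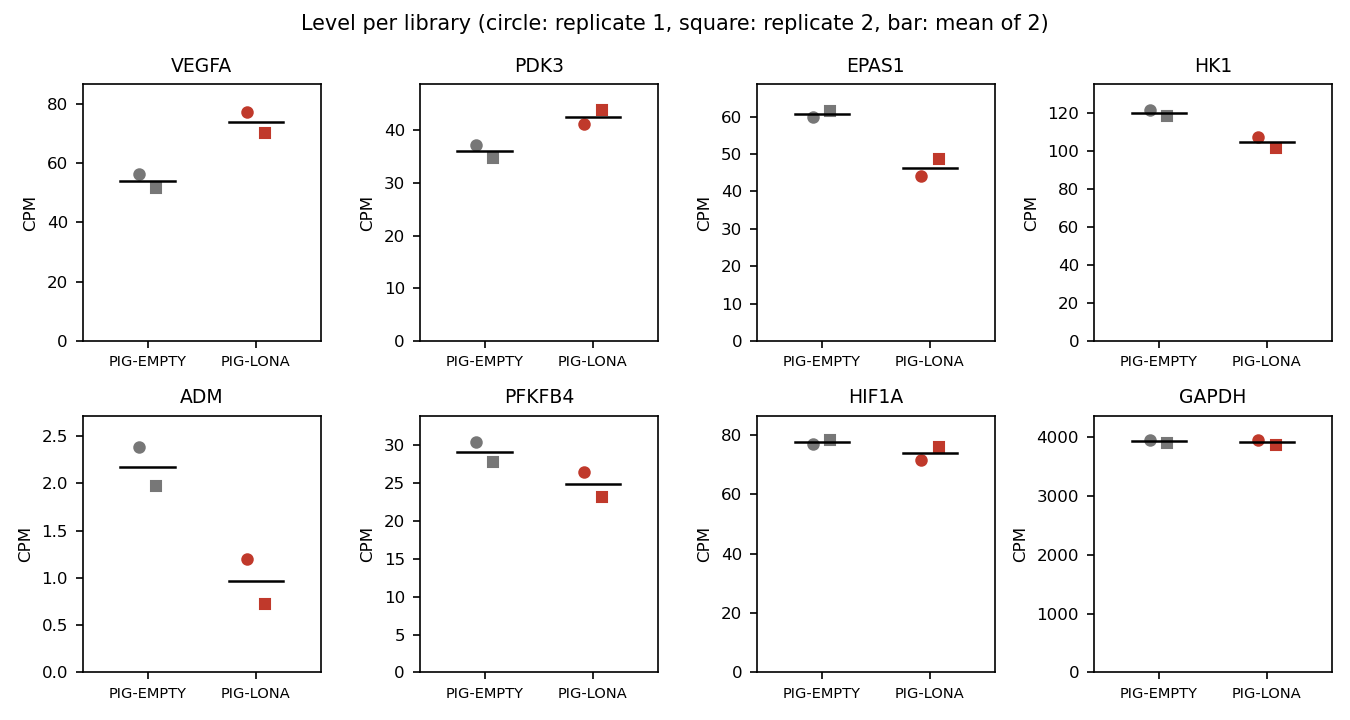
Level in CPM (y axis, from 0) of 8 genes in each library by group (x axis), with replicate 1 as circles, replicate 2 as squares and the mean as a bar. The groups are apart for VEGFA, PDK3, EPAS1, HK1, ADM, PFKFB4 and, narrowly, HIF1A, while GAPDH overlaps between 3865 and 3957 CPM.

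Of the 4 kinases that steer flux, 1 passed the test (25% called, beside 6.43% of all tested genes). All 4 had groups that did not overlap, as did 48.0% of all tested genes. Pyruvate dehydrogenase kinases switch off the enzyme that sends pyruvate into mitochondria. PDK3 (chromosome X, 24465221 to 24541862) was at 37.2 and 34.7 CPM in PIG-EMPTY and at 41.3 and 43.8 CPM in PIG-LONA, a rise of 0.24 ± 0.06 on the log2 scale (edgeR adjusted p = 0.00994). PDK1, the classical HIF target of this family, was at 44.6 and 38.9 CPM against 46.8 and 48.0 CPM and just missed the threshold (log2 fold change 0.19 ± 0.06, edgeR adjusted p = 0.0687). PDK3 lost its call without PIG-EMPTY replicate 2 (adjusted p = 0.250), with DESeq2 (0.0715) and with low counts kept in (0.0850). Over the other settings the log2 fold change of PDK1 ran from 0.09 to 0.28.

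The bifunctional PFKFB enzymes set fructose 2,6-bisphosphate, the main activator of phosphofructokinase. PFKFB4, also a HIF target, was at 30.4 and 27.7 CPM in PIG-EMPTY and 26.4 and 23.2 CPM in PIG-LONA. Its log2 fold change of -0.23 ± 0.07 had an edgeR adjusted p = 0.0524, just outside the threshold. It passed under 5 of 16 other settings, among them upper-quartile scaling, the replicate block and fits that left 1 library in a group. PFKFB3, the more abundant form, was at 50.5 and 52.7 CPM against 48.1 and 47.5 CPM (log2 fold change -0.11 ± 0.05, edgeR adjusted p = 0.231). So the 2 PDK genes had positive and the 2 PFKFB genes negative fold changes, of which only that of PDK3 passed.

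**Figure D4:**
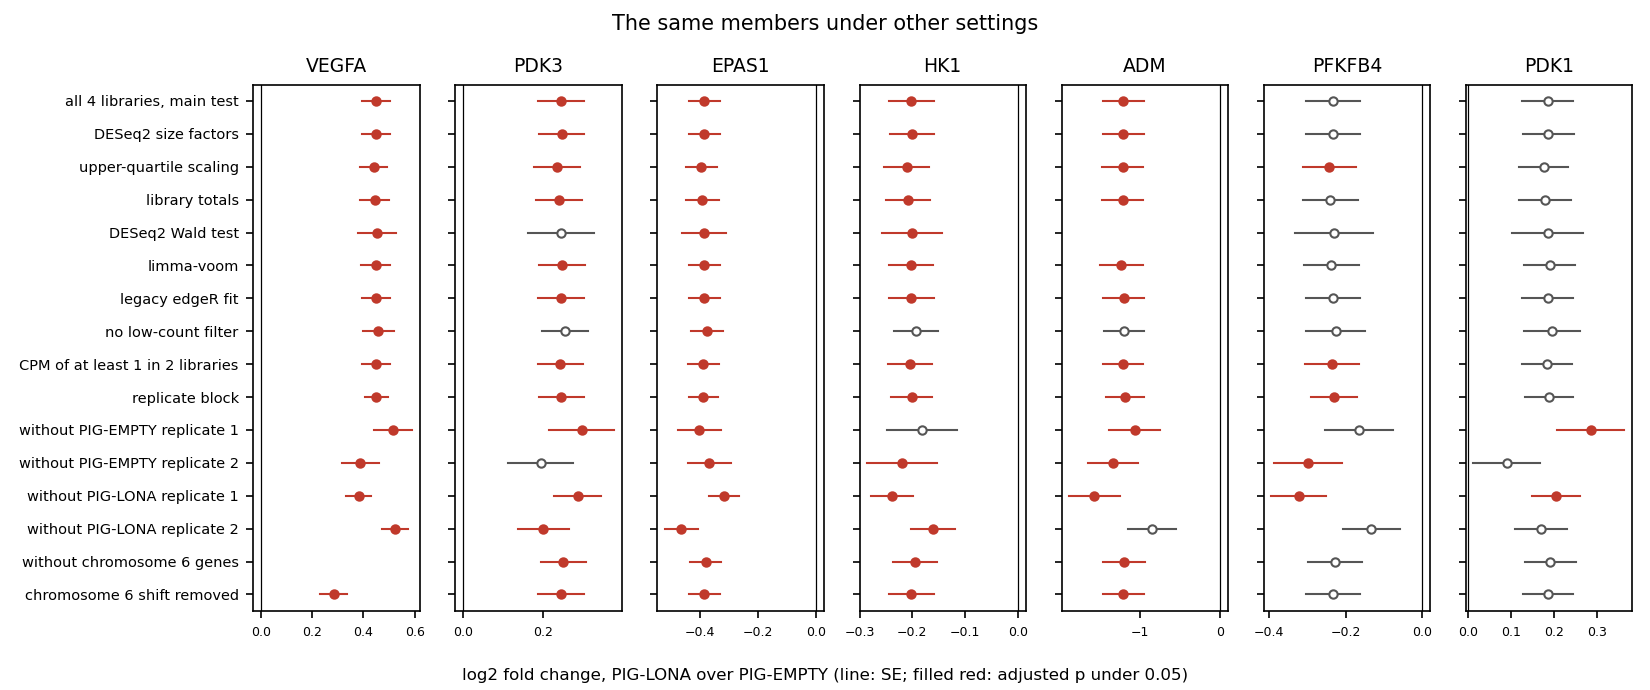
Log2 fold change with its SE (x axes) of 7 genes under the main test and 15 other settings (y axis), filled red where adjusted p is under 0.05 and open where it is not. EPAS1 and VEGFA are filled wherever they have a value, whereas PDK3, HK1, ADM, PFKFB4 and PDK1 change side with the library left out.

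Among the enzymes of upper glycolysis, 1 of 9 fell (11.1% called, beside 6.43% of all tested genes). Hexokinase traps glucose in the cell as its phosphate, and HK1 is the form found in most tissues (chromosome 10, 69269984 to 69401884). HK1 was at 122 and 118 CPM in PIG-EMPTY and 107 and 102 CPM in PIG-LONA, a drop of 13.1% (log2 fold change -0.20 ± 0.04, edgeR adjusted p = 0.00482). Without PIG-EMPTY replicate 1 the adjusted p was 0.112, and without the low-count filter 0.0647. HK2, the hypoxia-inducible form, was more abundant and did not pass with all libraries, with 206 and 201 CPM against 187 and 201 CPM (log2 fold change -0.07 ± 0.04, edgeR adjusted p = 0.409). Without PIG-LONA replicate 2 the log2 fold change of HK2 was -0.12.

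Hexokinase transcripts were mostly HK2. Per kilobase of exon, HK2 made up 60.5% to 65.1% of HK1, HK2 and HK3 together, HK1 31.7% to 34.6% and HK3 3.24% to 5.27%. The HK1 share was 34.6% and 34.3% in PIG-EMPTY against 34.2% and 31.7% in PIG-LONA. The first PIG-LONA library was within the counting interval of both PIG-EMPTY libraries, so the lower mean share (32.9% against 34.4%) rested on the second.

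GPI, which interconverts the hexose phosphates, was at 325 and 325 CPM in PIG-EMPTY against 338 and 330 CPM in PIG-LONA. The subunits of phosphofructokinase, the main control point of the pathway, did not pass. PFKL was at 230 and 219 CPM in PIG-EMPTY and at 233 and 236 CPM in PIG-LONA (log2 fold change 0.07 ± 0.04). The platelet-type subunit PFKP was at 154 and 162 CPM against 151 and 152 CPM, and the muscle-type PFKM at 55.1 and 53.6 against 48.6 and 52.2 CPM. Per kilobase the platelet form was the largest share (48.4% to 51.2%), then the liver form (37.6% to 40.9%) and the muscle form (10.4% to 11.6%). The liver share was 39.5% and 37.6% in PIG-EMPTY against 40.9% and 40.7% in PIG-LONA, so the PIG-EMPTY libraries differed from each other by more than the nearest values of the groups did.

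Aldolase needs care. ALDOA, the usual aldolase of blood cells, had only 111, 123, 99 and 101 counts (3.73 and 3.79 CPM against 3.31 and 2.63 CPM), while ALDOC, the brain-type enzyme, had 1620 to 2115 counts. The log2 fold change of ALDOA, the farthest from zero of the 17 enzymes, was -0.36 ± 0.17, with groups apart but no call (edgeR adjusted p = 0.246). The annotation places a second protein-coding gene on the same strand over 1657 bases of the 3.92 kb of ALDOA exons, and that row held 121 counts over the 4 libraries. How reads in shared exons were counted is not given in the sources used here, and the part of this overlap in the low ALDOA count was not tested. LDHB has a same-strand partner over 997 bases of its 2.98 kb as well. TPI1, which balances the triose phosphates, was at 795 and 794 CPM against 826 and 766 CPM.

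The enzymes of lower glycolysis recover ATP and make pyruvate and lactate. Their levels ran from GAPDH, the highest of the 40 genes per kilobase of exon, to LDHB and ENO2, which had few counts. Of 8 tested, 0 passed with edgeR, DESeq2 or limma-voom, beside 6.43% of all tested genes in edgeR. In edgeR 1 had an unadjusted p under 0.05, beside 18.7% of all tested genes. An absolute log2 fold change under 0.1 was found for 7 of the 8, beside 53.6% of all tested genes. GAPDH was at 3956 and 3894 CPM in PIG-EMPTY and 3957 and 3865 CPM in PIG-LONA, so its groups overlapped almost completely. The 95% interval of its change ran from -4.80% to 4.27%. ENO1, the common enolase, was at 1880 and 1873 CPM against 1977 and 1920 CPM, an interval from -0.857% to 8.76%. Without PIG-LONA replicate 2 the log2 fold change of ENO1 was 0.08. PKM, which makes pyruvate, was at 1096 and 1096 CPM against 1126 and 1095 CPM.

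LDHA was at 1353 and 1309 CPM in PIG-EMPTY and 1365 and 1304 CPM in PIG-LONA, with an interval from -4.56% to 5.36%. PGK1, the first ATP-yielding step, had an interval from -4.69% to 4.91%, and PGAM1, the mutase after it, one from -7.22% to 2.56%. The intervals of GAPDH, ENO1, LDHA, PGK1 and PGAM1 all exclude a change of the size seen in EPAS1, which was -23.5%. Those of ENO2 (-33.6% to -0.913%) and ALDOA (-38.7% to -0.882%), which had few counts, include it. Intervals within 0.2 on the log2 scale were found for 12 of the 17 enzymes (70.6%), against 36.8% of all tested genes, which include many of low count.

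Ordered by mean CPM per kilobase of exon, GAPDH came first with 1314, followed by ENO1 with 362, TPI1 with 295, LDHA with 215, PGAM1 with 156, PGK1 with 153 and PKM with 129. PGAM1 and PGK1 stood close together in that order. The scale divides by all annotated exons of a gene, so a gene with many unused exons reads low. Retroposed copies add a further limit, since GENCODE 29 names 62 pseudogenes for GAPDH, 13 for PGAM1 and 39 for BNIP3, and how reads that fit several copies were counted is not known here. ENO2, the neuronal enolase, made up 0.275% to 0.404% of enolase transcripts. It was at 5.71 and 6.16 CPM in PIG-EMPTY against 5.48 and 4.29 CPM in PIG-LONA, apart but not called (log2 fold change -0.30 ± 0.14, edgeR adjusted p = 0.241). Without PIG-LONA replicate 1 the log2 fold change of ENO2 was -0.47.

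LDHB, the heart-type subunit, had few counts beside LDHA, and the part of its same-strand overlap in that was not tested. It had 279 and 269 counts in PIG-EMPTY against 335 and 265 in PIG-LONA, which is 1.09% to 1.68% of lactate dehydrogenase transcripts per kilobase. In CPM the highest and the lowest of the 4 libraries were both PIG-LONA, 11.2 and 6.89, around 9.37 and 8.28 in PIG-EMPTY. The log2 fold change of 0.00339 ± 0.15 is therefore an average of opposite libraries. Without PIG-LONA replicate 1 the log2 fold change of LDHB was -0.35, and without PIG-LONA replicate 2 it was 0.35.

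Of the transporters, 0 of 4 passed with edgeR, DESeq2 or limma-voom, beside 6.43% of all tested genes in edgeR. An unadjusted p under 0.05 in edgeR was found for 1 of the 4, beside 18.7% of all tested genes. SLC2A1, which encodes the glucose transporter GLUT1, was at 95.5 and 87.8 CPM in PIG-EMPTY and 92.3 and 95.7 CPM in PIG-LONA. SLC2A3, which encodes GLUT3, was at 67.7 and 63.7 against 65.2 and 65.6 CPM. Of the proton-linked lactate carriers, SLC16A3 was at 345 and 360 against 347 and 340 CPM. SLC16A1 was at 182 and 179 CPM in PIG-EMPTY and 191 and 194 CPM in PIG-LONA, apart but not called (log2 fold change 0.09 ± 0.04, edgeR adjusted p = 0.159). Without PIG-LONA replicate 1, which leaves 1 library in that group, the log2 fold change of SLC16A1 was 0.11. Its share of the 2 carriers per kilobase was 47.2% and 45.7% in PIG-EMPTY against 48.2% and 49.2% in PIG-LONA.

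**Figure D5:**
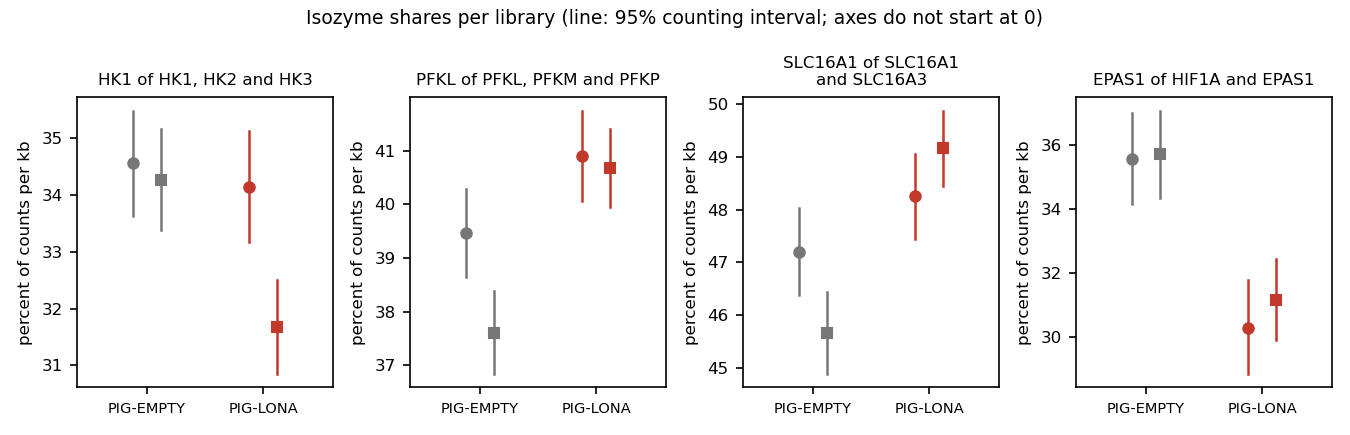
Share of 1 transcript within its family, in percent of counts per kilobase of exon (y axes, not starting at 0), per library by group (x axis), with exact 95% counting intervals as lines. The intervals of the groups are apart for EPAS1, whereas the HK1 shares of PIG-LONA replicate 1 and both PIG-EMPTY libraries coincide.

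Genes around the pathway were read from 7 further lists, of which 136 genes were tested, with 7 higher and 6 lower (9.56% called, beside 6.43% of all tested genes). Of 12 tested glycolytic isozymes and side enzymes, HK3, the hexokinase of myeloid cells, fell from 8.50 and 9.51 CPM to 6.28 and 5.44 CPM (log2 fold change -0.63 ± 0.12, edgeR adjusted p = 0.00154). PGM3, a hexosamine pathway enzyme on chromosome 6, rose by 0.30 ± 0.07. Of 19 tested sugar and monocarboxylate carriers, 2 rose and 1 fell. MPC1, a subunit of the mitochondrial pyruvate carrier and also on chromosome 6, rose by 0.32 ± 0.06, SLC16A9 rose by 0.27 ± 0.08, and the lysosomal hexose transporter SLC2A6 fell (log2 fold change -0.35 ± 0.07), a call lost with DESeq2 (adjusted p = 0.0544) and with low counts kept in (0.0575). With the chromosome 6 shift removed, PGM3 and MPC1 were no longer called (0.13 and 0.15). PGM3 lost its call under 6 of 15 other settings, DESeq2 among them, MPC1 under 2 of 15 and SLC16A9 under 9 of 16.

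Of 12 pyruvate dehydrogenase genes, 0 passed with edgeR, DESeq2 or limma-voom, and 0 had an unadjusted p under 0.05 in edgeR, beside 6.43% called and 18.7% at that p among all tested genes. PDP2, a phosphatase that reactivates the enzyme, was at 0.15 ± 0.08 and the core subunit DLAT at 0.07 ± 0.04 on the log2 fold change scale. Of 11 tested pentose phosphate genes, H6PD rose, from 76.2 and 79.9 CPM to 97.0 and 94.5 CPM (log2 fold change 0.29 ± 0.04, edgeR adjusted p = 0.000228). It encodes the hexose phosphate dehydrogenase of the endoplasmic reticulum, and it kept its call under all 16 other settings. Of 13 gluconeogenesis and glycogen genes, 0 passed with edgeR and DESeq2 and 2 had an unadjusted p under 0.05 in edgeR. PYGL, the liver-type glycogen phosphorylase, had a log2 fold change of -0.10 ± 0.03 and was called lower with limma-voom.

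Of 17 tested HIF regulators, HSP90AB1, a chaperone gene on chromosome 6, rose by 0.15 ± 0.03, close to that chromosome's median of 0.17. It was not called once the shift was removed (-0.02), and it kept its call under 12 of 15 other settings. Of 53 tested further HIF targets, 2 rose and 4 fell (11.3% called, beside 6.43% of all tested genes). Their median log2 fold change was -0.02. STC2, a secreted glycoprotein, rose from 5.14 and 5.63 CPM to 8.62 and 9.36 CPM (0.74 ± 0.11). TFRC, the transferrin receptor, rose by 0.22 ± 0.04, a call lost without PIG-EMPTY replicate 2 (adjusted p = 0.0602). ENG, a TGF-beta co-receptor, fell, with a log2 fold change of -0.24 ± 0.04, and it was called under all 16 other settings. PLOD1 (log2 fold change -0.15 ± 0.04, edgeR adjusted p = 0.0362) and HMOX1 (-0.56 ± 0.17, adjusted p = 0.0467) were called lower as well. DESeq2 called neither of them, and limma-voom did not call HMOX1. Outside chromosome 6, 4 related genes rose and 6 fell among 131 tested (7.63%), beside 241 higher and 543 lower of all 15119 tested genes there.

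Some genes of the myeloid and leukaemia list differed as well. Of its 15 genes, 4 fell (ANPEP, SPI1, FCGR1A and LYZ) and 1, FLT3, rose, which is 33.3% beside 6.43% of all tested genes. DESeq2 did not call SPI1 and LYZ. The list summed to 3557 and 3517 CPM in PIG-EMPTY and to 3500 and 3425 CPM in PIG-LONA. NPM1 alone held 1767 and 1771 CPM of that sum in PIG-EMPTY and 1813 and 1769 CPM in PIG-LONA. It was not called, so the sum says little about the markers that were. In bulk RNA, fewer cells of a type and less RNA per cell cannot be told apart. PECAM1, an adhesion receptor of endothelium and of myeloid cells, stood at 32.3 and 33.0 CPM against 26.4 and 26.2 CPM and was also called lower (log2 fold change -0.31 ± 0.06). It made up most of the 27.3 to 34.4 CPM of 9 stromal and endothelial markers, of which the other 8 were under 1 CPM in every library. The part of these markers in the falls of EPAS1, ADM and HK3 was not tested.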

How the data were processed

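The authors deposited unnormalised counts of reads for each Ensembl gene in 4 library columns, from poly(A) RNA libraries made with a directional kit, per the labels' protocols. Tools named in the submitters' processing notes are FastQC 0.11.4, STAR 2.5 and HTSeq, with the build hg38. Not given in the sources used here are the annotation, the strand setting and the treatment of multiply mapped reads, so values of overlapping genes and close copies are uncertain. Symbols matched 60357 of 67062 rows, and rows without one held 0.0723% of counts. Coordinates and exon lengths came from GENCODE 29 (GRCh38).

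Counts were filtered with filterByExpr (minimum count 10, minimum total 15), scaled by TMM and tested with edgeR 4.0.16 (glmQLFit, legacy off, and glmQLFTest, two-sided) in R 4.3.3 on all 4 libraries, with Benjamini-Hochberg adjustment over 15918 genes. The biological coefficient of variation was 2.95%. With 2 libraries a group, p-values measure the spread between transductions of 1 line. Intervals of shares cover counting error only. The test was checked on simulated counts drawn with the same spread in both groups. That check does not cover the unequal spread of the PIG-LONA and PIG-EMPTY libraries. Alternatives were other scalings, DESeq2 1.42.0, limma-voom (limma 3.58.1), the legacy fit, other filters, a replicate block, each library left out, adjusted p under 0.01, and chromosome 6 left out or, added after the data were seen, centred.

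The genes and lists were chosen with earlier results of these data known. All 40 were accounted for. Each further list named up to 4 called genes with the smallest p, or 2 as values where none was called, and 2 genes that this rule names are not reported here. PLOD1 and HMOX1 and the called genes of the myeloid and leukaemia list were named after their values were seen.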

Additional observations from a re-analysis of the deposited data

How the results depend on the processing

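EPAS1 and VEGFA kept their direction and their call under every setting that gave them a value, as did HK3, H6PD, STC2 and ENG among the further genes. With DESeq2, 473 genes differed, 1 member was higher and 3 related genes were lower. Without the low-count filter these counts were 334, 1 and 3, and 1 member was lower. DESeq2 gave no adjusted p for ADM. With adjusted p under 0.01, 528 genes differed. Fits with 1 library left out take the spread from the group that keeps both libraries, so their counts are not read as results. Leaving out 1 library in turn gave 466 to 2329 genes, 1 to 5 higher and 2 to 6 lower members, and 3 to 14 higher and 4 to 14 lower related genes. Without chromosome 6 genes, 660 genes, 1 higher member and 3 higher related genes were called, and with its shift removed 3 related genes were higher and HSP90AB1 was at -0.0165. The replicate number as a block gave 1101 genes and moved PFKFB4 past the threshold (adjusted p = 0.0233). Deviations of same-numbered libraries correlated at 0.0288, and the labels do not say that a number marks a shared day. Whether same-numbered libraries were paired is therefore not known.

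Apart from HSP90AB1, the genes whose direction flipped had an absolute log2 fold change under 0.1 and no call with all libraries. PGK1 was at 0.000947 with DESeq2 size factors, 0.000927 with DESeq2, 0.00841 without the filter and 0.00575 without chromosome 6, GAPDH at 0.00323 and 0.000524 under the last 2, and SLC2A3 at 0.00299 without the filter. With upper-quartile scaling and with library totals, TPI1 was at -0.00667 and -0.00408, LDHA at -0.00511 and -0.00241, LDHB at -0.00621 and -0.00261, and BNIP3L at -0.00566 and -0.00220. LDHB was at -0.0416 with limma-voom. Over single-library omissions the ranges were: SLC2A1 -0.0217 to 0.10, SLC2A3 -0.0497 to 0.0399, TPI1 -0.0524 to 0.0579, GAPDH -0.0217 to 0.0131, PGK1 -0.022 to 0.0239, PKM -0.00091 to 0.0399, LDHA -0.0289 to 0.0385, LDHB -0.35 to 0.35, ARNT -0.0526 to 0.0285, EGLN1 -0.23 to 0.0928, BNIP3 -0.0305 to 0.20 and BNIP3L -0.0249 to 0.0342. Depth limits ADM, EGLN1, ALDOA, ENO2, LDHB and ANKRD37, which had at most 335 counts in a library.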
